A study of Mus musculus with 10 samples.

Results

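The synaptic adhesion molecules examined here are 43 genes, chosen by symbol from the 18453 gene rows of the series, and all 43 were found and passed the filter on low counts. They fall into 12 families: neurexins, neuroligins, LRRTM, SLITRK, IL1RAPL, LRFN (SALM), contactin, CNTNAP and SynCAM proteins, LAR receptor phosphatases, calsyntenins and netrin-G ligand proteins. RNA came from hippocampal CA3 of C57BL/6J mice whose CA3 had been infused on both sides with adeno-associated virus (AAV). In 5 libraries the virus carried a scrambled hairpin (scramble), and in 5 it carried an shRNA against Mef2c, a transcription factor of neurons (knockdown). The labels mark every library as male, while the injection protocol speaks of either sex. The sources used here do not give the age of the mice, the viral promoter, the hairpin sequence, the time after injection or whether a library came from 1 animal. The p-values therefore measure the spread between these libraries, which may be technical in part.

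Synaptic adhesion proteins span the cleft between axon and target cell and help to form, align and specify synapses. Presynaptic neurexins and LAR receptor phosphatases act as hubs. Neuroligins and LRRTM proteins bind neurexins from the postsynaptic side, while SLITRK and IL1RAPL proteins and some LRFN proteins bind the phosphatases. Contactins, their CNTNAP partners and SynCAM proteins also act along axons, the former pair at the borders of nodes of Ranvier. In CA3, such proteins serve mossy fibre, recurrent and inhibitory synapses alike.

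Libraries held 14701928 to 17798090 counts. Values are given as CPM, a gene's counts scaled to a fixed library size after TMM normalization. Mef2c stood at 166, 198, 176, 312 and 175 CPM in scramble libraries 1 to 5 and at 111, 131, 121, 163 and 286 CPM in knockdown libraries 1 to 5, a log2 fold change of -0.34 ± 0.30 (SE, with an edgeR adjusted p of 0.489). The library labelled knockdown 5 thus goes against its label in the targeted transcript. The value was -0.14 without scramble library 4 (edgeR adjusted p = 0.799) and -0.64 without the library labelled knockdown 5 (edgeR adjusted p = 0.0877). Without both it was -0.45 and passed (edgeR adjusted p = 0.0274). These 2 libraries hold the highest Mef2c value of their groups, so these fits leave out libraries by the value tested. No conclusion on the reduction of Mef2c is drawn from their p-values. All 6 CA3 pyramidal markers were detected, with a summed level of 319 to 352 CPM in scramble and 271 to 388 CPM in knockdown libraries. Markers of neighbouring tissue were present too, the 8 of cortical layer neurons at 514 to 652 and 462 to 647 CPM and the 10 of oligodendrocytes at 5207 to 7807 and 4974 to 9898 CPM. Other hippocampal fields were represented as well. The 5 CA1 pyramidal markers summed to 1000 to 1086 and 879 to 1039 CPM. The 5 dentate granule markers summed to 367 to 503 and 293 to 490 CPM, and the 4 of CA2 to 133 to 164 and 117 to 199 CPM. Such sums depend on the genes listed and do not give shares of tissue. Of 8 microglia markers, 5 rose, from summed levels of 303 to 404 to 349.8 to 656 CPM, and the 8 interferon response genes summed to 26.2 to 129 and 32.5 to 361 CPM, with 1 of them past the test. The score of the interferon genes (mean log2 CPM, each gene centred over the 10 libraries) was 2.02, 1.67 and 1.88 in knockdown libraries 2, 3 and 4, while knockdown library 1 had 0.34 and the library labelled knockdown 5 -1.52. It split the scramble libraries too, at 0.18 and 0.46 in libraries 2 and 3 and -1.79, -1.55 and -1.68 in libraries 1, 4 and 5. A cortical layer neuron score, computed likewise, was highest in scramble library 4 and the library labelled knockdown 5, at 0.40 and 0.51. These also held the highest Mef2c values. With that score as a covariate Mef2c had a log2 fold change of -0.21 ± 0.080 (SE, with an edgeR adjusted p of 0.0762). Whether the share of cortical tissue accounts for the Mef2c values of these libraries was not tested. The 5 choroid plexus markers varied most between libraries, summing to 1724, 95.1, 67.7, 1964 and 983 CPM in scramble and 2736, 45.6, 62.3, 51.2 and 667 CPM in knockdown libraries, lowest in knockdown 2, 3 and 4. No marker of these lists had a mean under 1 CPM in both groups, and single libraries were not screened for values near 0. The part of other cell types in the results below was not tested except where a value is given. In bulk tissue, fewer cells of a type and less RNA per cell cannot be told apart.

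Levels were compared between genes per kb of the longest annotated transcript in the scramble libraries. Clstn1, a calsyntenin that also links vesicles to a kinesin motor, had the highest level, 251 ± 13 CPM per kb (SD, n = 5). Next came the phosphatase Ptprs at 101 ± 3.36, Clstn3 at 96.6 ± 5.14, the SynCAM gene Cadm4 at 92.1 ± 7.44, the netrin-G ligand family gene Lrrc4b at 84.4 ± 5.19, the contactin Cntn1 at 83.8 ± 2.92 and Cadm3 at 83.2 ± 3.95 CPM per kb. These 6 followed each other without a gap larger than the sum of the 2 neighbours' SDs. Over the whole order, 30 of 42 neighbouring pairs lay within that spread. At the low end were Cntn6 at 1.91 ± 0.309, Il1rapl1 at 1.48 ± 0.238, Cntn5 at 0.886 ± 0.0972 and Il1rapl2 at 0.542 ± 0.133 CPM per kb.

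Families differed in how evenly their members were expressed. Among contactins, which are lipid-anchored immunoglobulin proteins, Cntn1 stood far above Cntn2 at 23.3 ± 1.61, Cntn3 at 4.38 ± 0.75 and Cntn4 at 3.66 ± 0.54 CPM per kb. Nlgn2, the neuroligin of inhibitory synapses, stood at 62.7 ± 2.09 CPM per kb, above Nlgn3 at 7.51 ± 0.145 and Nlgn1 at 6.3 ± 0.612. The LRFN genes were closer together, from 21.6 ± 1.89 for Lrfn1 to 7.71 ± 1.05 CPM per kb for Lrfn2. The reads were counted per gene, so long and short forms of a neurexin, which start at different promoters, are summed.

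**Figure D1:**
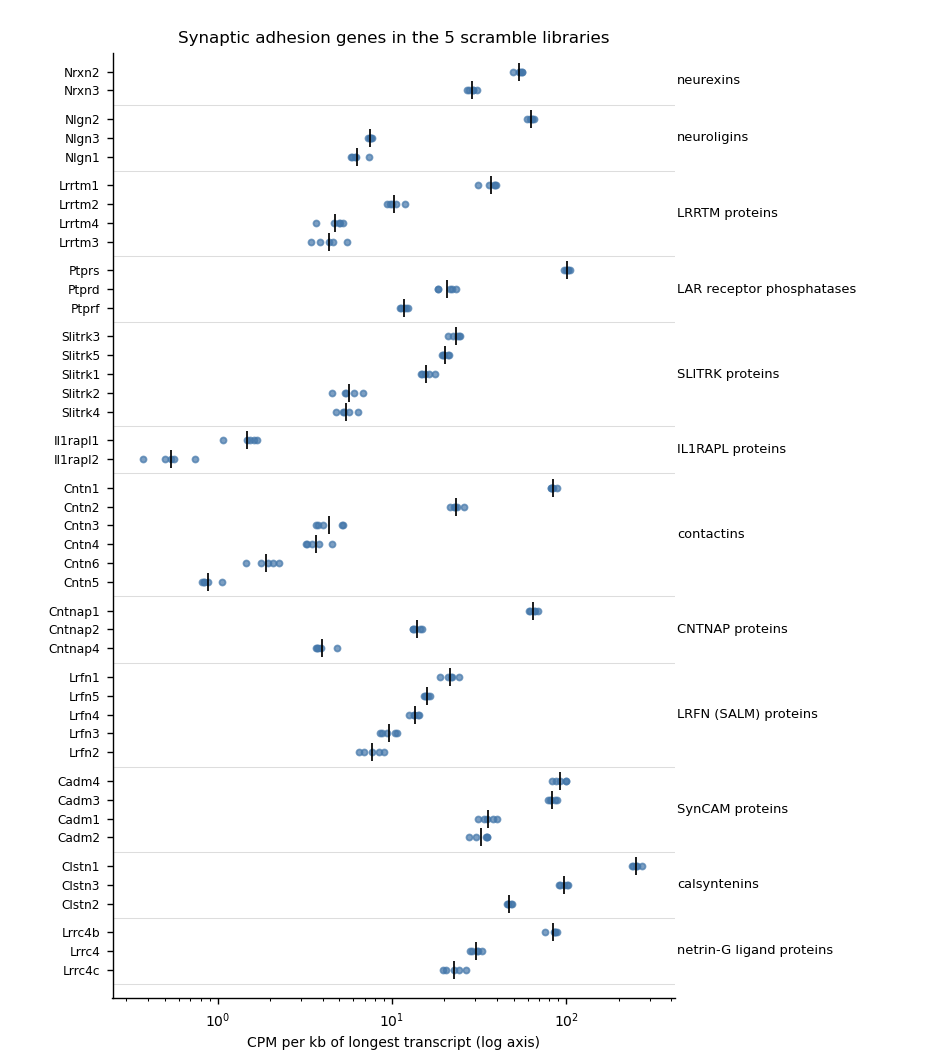
Level of each member in the 5 scramble libraries, in CPM per kb of the longest transcript on a log axis, grouped by family; points are libraries and the bar is the mean. Clstn1 lies alone at the top, and Il1rapl2 and Cntn5 lie below 1.1 CPM per kb in every library.

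In the knockdown libraries 8 of the 43 members were lower and 0 higher at an edgeR adjusted p under 0.05. Over all 14393 genes tested, 7.61% were lower and 4.66% higher (12.3% in either direction). The lower members were Clstn2, Slitrk4, Cntnap2, Cntn1, Ptprd, Cntnap4, Nrxn3 and Cadm1, from 7 families. At an unadjusted p under 0.05, edgeR had 16 lower and 5 higher members, where 4327 of all 14393 genes reached it in either direction. The DESeq2 Wald test called 12 lower and 2 higher, where it called 9.23% of all genes lower and 7.83% higher. With limma-voom 14 were lower and 2 higher, against 12.7% and 10.9% of all genes. The median log2 fold change was -0.12 over the members and 0.016 over all genes, and 30 of 43 members had a negative value against 47.2% of all genes. In 5 members all knockdown libraries lay below all scramble libraries, and in 1 they lay above; over all genes these shares were 6.04% and 3.3%, or 9.34% in either direction. Fewer members were lower without scramble library 2 (3 members), 5 (4), 4 (5) or 1 (6), or without knockdown library 2 (4), 4 (5) or 3 (6). More were lower without scramble library 3 (9) or knockdown library 1 (12). Over all genes, lower calls numbered 1095 of 14393 with all libraries, 501 of 14501 without scramble library 2 and 1776 of 14515 without knockdown library 1. Without knockdown libraries 2, 3 and 4, the 3 with the high interferon scores and the lowest choroid plexus sums, edgeR called 0 members, with 15 at an unadjusted p under 0.05. That fit kept only knockdown libraries 1 and 5 of their group. It called 0 of all 14705 genes, with 2590 at an unadjusted p under 0.05. The effect of having fewer libraries and that of which libraries were left out cannot be told apart here.

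**Figure D2:**
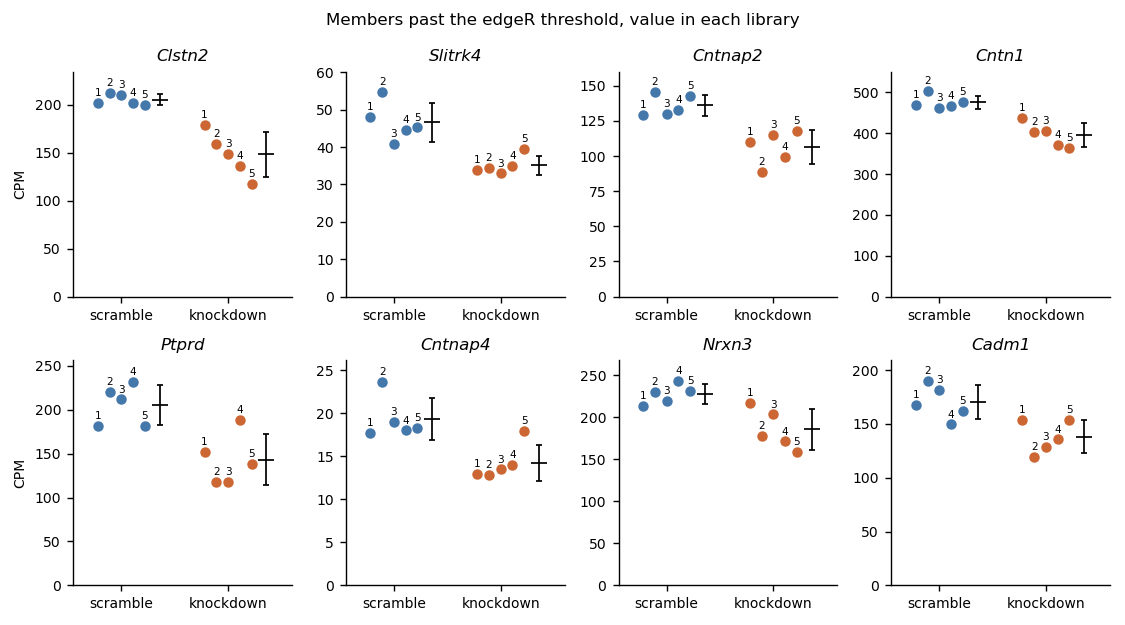
CPM of the 8 members past the edgeR threshold in each of the 10 libraries, with the replicate number above each point and the mean ± SD beside each group; axes start at 0. The groups do not overlap for Clstn2, Slitrk4, Cntnap2 and Cntn1, while for Ptprd knockdown library 4 reaches 189 CPM, inside the scramble range.

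Transcript length went with these values. The members' median longest transcript was 4.86 kb against 3.48 kb for all genes. Genes of 4 to 6 kb had a median of -0.066 on the log2 scale and 6.40% lower calls, those of 6 to 8 kb -0.19 and 22.7%, and those of 8 to 12 kb -0.32 and 49.9%. In the same classes the members had medians of -0.17 (18 members, 4 lower), -0.22 (6 members, 1 lower) and -0.36 (7 members, 3 lower). The 12 members of 2 to 4 kb had a median of 0.10 and no call, against 0.063 over all genes of that class. Across the 43 members the Spearman correlation of log2 fold change with length was -0.55, and across all genes -0.56; these genes share the same 10 libraries and are not independent.

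A per-library correction for transcript length and GC content left 1 member lower, Clstn2, and 1 higher, Nlgn3, where 0.959% of all genes were lower and 0.695% higher (1.65% in all). The members' median log2 fold change was then -0.010, and 23 of 43 values were negative. The correlation with length across members became 0.095. The correction subtracts each library's trend with length and GC, so a value near 0 largely follows from its construction. It also takes out any real group difference that follows length. Lost calls and turned signs under it therefore do not tell their cause. The correction takes the longest annotated transcript of each gene, which may not be the one expressed.

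**Figure D3:**
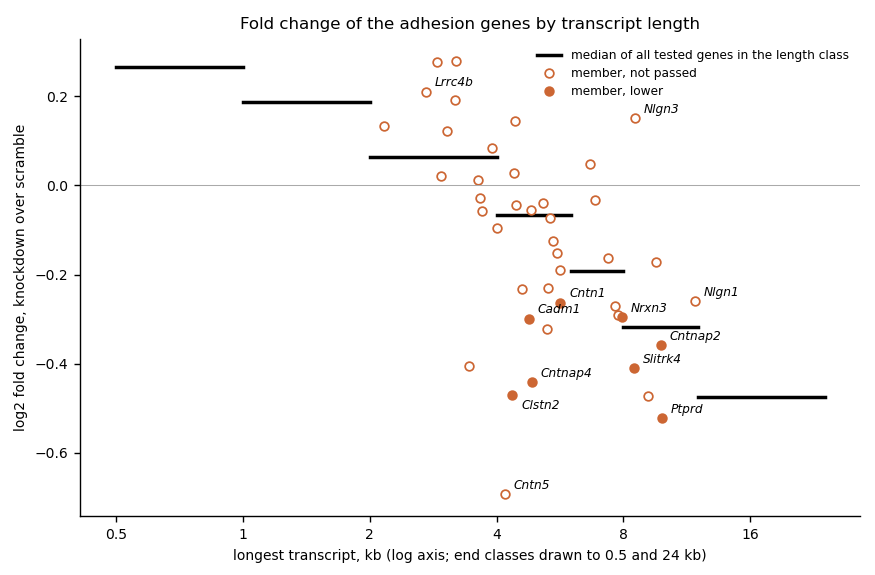
Log2 fold change of the 43 members against the length of their longest transcript on a log axis; filled points passed the edgeR threshold, and the black bars are medians of all tested genes by length class. Members spread around the bars, with Clstn2, Cntnap4 and Cntn5 below and Nlgn3 above those of their length.

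Clstn2, a calsyntenin and thus a cadherin-like protein of the postsynaptic membrane, had the smallest p of the members (chromosome 9, 97444395 to 98033181, minus strand, GRCm38). It stood at 202, 212, 210.3, 202 and 199.8 CPM in scramble libraries 1 to 5 and at 179, 159.6, 149, 136 and 118 CPM in knockdown libraries 1 to 5. Every knockdown library lay below every scramble library, and the library labelled knockdown 5 was the lowest of all. Its log2 fold change was -0.47 ± 0.090 (SE, with an edgeR adjusted p of 0.00645). With the length and GC correction it was -0.46 ± 0.074 (SE, with an edgeR adjusted p of 0.0119). It passed in all 10 fits that left out 1 library and in 23 of 24 alternatives. The exception was the fit without knockdown libraries 2, 3 and 4, at -0.48 with an edgeR adjusted p of 0.161, a fit in which no gene of the whole table was called.

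The other calsyntenins did not pass. Clstn1 stood at 1120.2 ± 57.8 and 1087 ± 152 CPM in scramble and knockdown libraries (SD, n = 5), a log2 fold change of -0.044 ± 0.084 (SE, as for all log2 fold changes below). Its value of 1345 CPM in the library labelled knockdown 5 was the highest of the 10. Clstn3, at 388 ± 20.6 and 362 ± 32.7 CPM, had a log2 fold change of -0.097 ± 0.070. Whether the changes of Clstn2 and Clstn1 differ was not tested. In the library labelled knockdown 5, the highest Clstn1 and the lowest Clstn2 value occurred together.

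The promoters of Clstn2 and Clstn1 are shown because the first gene fell and the second, of the same family, did not pass. The stretches below are the 250 bases before the RefSeq start of each (GRCm38.p6), from chr9:98033168-98033417 on the minus strand and chr4:149586218-149586467 on the plus strand. Both are rich in GC, at 70.8% and 80.0%, with 34 and 38 CpG pairs. Capitals mark the cAMP response element TGACGTCA, a palindrome that reads alike on both strands.
Clstn2: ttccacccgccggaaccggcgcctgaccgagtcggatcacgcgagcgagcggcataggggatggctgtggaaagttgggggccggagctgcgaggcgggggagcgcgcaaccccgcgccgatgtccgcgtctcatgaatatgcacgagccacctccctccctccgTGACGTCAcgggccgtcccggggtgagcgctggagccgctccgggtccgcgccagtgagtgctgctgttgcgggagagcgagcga
Clstn1: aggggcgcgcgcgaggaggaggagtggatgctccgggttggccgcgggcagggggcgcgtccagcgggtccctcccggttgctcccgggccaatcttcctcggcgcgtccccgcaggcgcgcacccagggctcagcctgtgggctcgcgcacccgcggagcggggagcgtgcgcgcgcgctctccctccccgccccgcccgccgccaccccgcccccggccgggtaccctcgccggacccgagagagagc
Of the 43 members, 33 had an entry in the promoter table, with 45 windows of 300 bases (250 before to 50 after the start). TGACGTCA occurred in 1 window each of Clstn2, Clstn3, Ptprs and Slitrk2, and in 1.79% of all 32851 windows. Of these genes, Clstn2 fell and the other 3 did not pass. A search of both strands for the MEF2 consensus found it in 3.19% of all windows and in 0 of the members' windows, which says only that these letters are not there.

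Among the presynaptic hubs, Nrxn3 fell and Nrxn2 did not pass. Nrxn3 (chromosome 12, 88722876 to 90334935, plus strand) stood at 214, 231, 220.1, 244 and 232 CPM in scramble and 217, 178, 204, 171 and 159 CPM in knockdown libraries. Knockdown library 1 lay inside the scramble range and the other 4 lay below it, which gave a log2 fold change of -0.30 ± 0.081 (SE, with an edgeR adjusted p of 0.0331), and with the length and GC correction -0.010. Nrxn2, the more abundant of the pair, stood at 359 ± 16.1 and 371 ± 30.2 CPM, with a log2 fold change of 0.047 ± 0.065. Exons of Slc22a12 on the opposite strand overlap 4.94% of the annotated exon bases of Nrxn2, and the sources used here do not state whether the counting used strand.

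Of the LAR receptor phosphatases, Ptprd fell. This receptor binds SLITRK and IL1RAPL proteins across the cleft. It lies on chromosome 4, 75941238 to 78211961, minus strand, and stood at 182, 220.1, 212, 231 and 181 CPM in scramble and 152, 118, 118, 189 and 139 CPM in knockdown libraries. Knockdown library 4 alone overlapped the scramble range, and libraries 2 and 3 were the lowest. Ptprd had a log2 fold change of -0.52 ± 0.13 (SE, with an edgeR adjusted p of 0.0238), and -0.17 ± 0.12 (SE, with an edgeR adjusted p of 0.537) after the length and GC correction. Ptprs was nearly level, at 693 ± 23 and 677 ± 55.9 CPM, with a log2 fold change of -0.033 ± 0.064. For Ptprf, knockdown library 1 stood at 103 CPM, above all scramble libraries, and the other 4 knockdown libraries at 63.7, 70.6, 67.8 and 67.2 CPM, below all of them. Its log2 fold change was -0.27 ± 0.11 (SE, with an edgeR adjusted p of 0.128) with all libraries and -0.41 (edgeR adjusted p = 0.000444) without knockdown library 1, in which fit it passed, as it did with limma-voom (adjusted p = 0.00828).

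No neuroligin passed with edgeR over all 10 libraries without the correction, though each passed in other fits. Nlgn2 stood at 352, 332, 345, 354 and 364 CPM in scramble and 356, 274, 332, 282 and 329 CPM in knockdown libraries, a log2 fold change of -0.15 ± 0.074 (SE, with an edgeR adjusted p of 0.181). Its knockdown values were more scattered than its scramble values, with libraries 2 and 4 lowest. It passed with limma-voom (adjusted p = 0.0218). Nlgn1, best known from excitatory synapses, stood at 74.3 ± 7.22 and 62.1 ± 7.16 CPM, with a log2 fold change of -0.26 ± 0.087 (SE, with an edgeR adjusted p of 0.0654). Nlgn1 passed with DESeq2 (0.0467), limma-voom (0.0285), the cortical score as covariate (0.0207) and without knockdown library 1 (0.02, all adjusted p). It has the longest transcript of the members, 11.8 kb, and its sign turned with the length and GC correction, to 0.17.

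Nlgn3, an X-linked neuroligin found at both kinds of synapse, had the steadiest scramble values of the family. It stood at 64.1, 63.8, 62.3, 64.7 and 65.7 CPM in scramble and 65.7, 72.7, 70.2, 73.1 and 74.2 CPM in knockdown libraries. Knockdown libraries 2 to 5 lay above all scramble libraries and library 1 lay level with the highest of them. Nlgn3 had a log2 fold change of 0.15 ± 0.055 (SE, with an edgeR adjusted p of 0.0837), and 0.46 ± 0.081 (SE, with an edgeR adjusted p of 0.0169) after the length and GC correction, where it rose. Uncorrected, it passed with DESeq2 (0.0478), limma-voom (0.0488) and without knockdown library 1 (0.0255, all adjusted p). Its longest transcript has 8.54 kb. A transcript named Gm21986, on the same strand, covers 41.2% of its annotated exon bases.

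Among LRRTM proteins, the leucine-rich partners of neurexins, none passed. Lrrtm1 stood at 115, 106, 117, 91.9 and 114 CPM in scramble and 116, 116, 106, 104 and 109 CPM in knockdown libraries, with a log2 fold change of 0.021 ± 0.071 and overlapping groups. Log2 fold changes were -0.19 ± 0.070 for Lrrtm2, 0.084 ± 0.26 for Lrrtm3 and 0.14 ± 0.11 for Lrrtm4. Lrrtm3 had the most uneven knockdown values of the family, 11, 15.8, 12, 21.3 and 29.7 CPM, with the library labelled knockdown 5 the highest. Lrrtm1, Lrrtm2 and Lrrtm3 lie within the alpha-catenin genes Ctnna2, Ctnna1 and Ctnna3 on the opposite strand, with exon overlap at 1.58% of the bases for Lrrtm2 and 0% for the other pair.

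The SLITRK genes, whose products bind LAR receptor phosphatases, had negative log2 fold changes in 5 of 5 cases, of which 3 turned positive with the length and GC correction, and Slitrk4 fell. Slitrk4 is X-linked (chromosome X, 64264885 to 64276996, minus strand) and stood at 48.1, 54.6, 40.7, 44.5 and 45.2 CPM in scramble and 34, 34.4, 32.9, 34.9 and 39.4 CPM in knockdown libraries. The groups did not overlap, the highest knockdown value being that of the library labelled knockdown 5. For Slitrk4 the log2 fold change was -0.41 ± 0.084 (SE, with an edgeR adjusted p of 0.00924), and -0.028 after the length and GC correction, in which the gene no longer passed. Slitrk3, which acts with Ptprd at inhibitory synapses, had a log2 fold change of -0.23 ± 0.074 (SE, with an edgeR adjusted p of 0.0537), Slitrk2 -0.29 ± 0.10, Slitrk1 -0.073 ± 0.074 and Slitrk5 -0.056 ± 0.053. Slitrk3 passed with DESeq2 (0.0314), limma-voom (0.0257), the cortical score (0.00485) and without knockdown library 1 (0.0235, all adjusted p). Slitrk2 passed with the cortical score (0.0304) and without scramble library 3 (0.0305, both adjusted p). The 3 that turned were Slitrk1, Slitrk2 and Slitrk5, at 0.085, 0.023 and 0.021.

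IL1RAPL proteins, which also bind Ptprd, were the least abundant family. Il1rapl1 stood at 13.5, 14.8, 9.81, 15.3 and 14 CPM in scramble and 7.0, 11.3, 8.34, 11.6 and 10.4 CPM in knockdown libraries. Scramble library 3 lay within the knockdown range and the other 4 above it, with a log2 fold change of -0.47 ± 0.16 (SE, with an edgeR adjusted p of 0.063). Il1rapl1 passed with DESeq2 (0.035), limma-voom (0.0391) and without scramble library 3 (0.03, all adjusted p). Il1rapl2, at 1.86 ± 0.456 and 1.41 ± 0.348 CPM, had a log2 fold change of -0.41 ± 0.26. Both genes lie on the X chromosome, as do Nlgn3, Slitrk2 and Slitrk4.

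The 5 LRFN genes, which encode leucine-rich proteins, some of which bind postsynaptic scaffolds, all had positive log2 fold changes, though Lrfn1 turned negative with the length and GC correction and Lrfn5 with limma-voom. None passed with edgeR over all 10 libraries. Lrfn1 stood at 74, 58, 66.8, 64.5 and 67.7 CPM in scramble and 73.9, 70.5, 61, 67.6 and 87.3 CPM in knockdown libraries, with a log2 fold change of 0.12 ± 0.091. Only the library labelled knockdown 5 lay above the scramble range, at 87.3 CPM. Lrfn2 had a log2 fold change of 0.28 ± 0.11 (SE, with an edgeR adjusted p of 0.11) and Lrfn3 0.28 ± 0.098 (SE, with an edgeR adjusted p of 0.0777). The values were 0.19 ± 0.087 for Lrfn4 and 0.027 ± 0.067 for Lrfn5. Lrfn3 passed without knockdown library 1 (edgeR adjusted p = 0.0243) and with the oligodendrocyte score as covariate (edgeR adjusted p = 0.046). All but Lrfn5 have transcripts of 3.2 kb or less. After the length and GC correction the values were -0.042 for Lrfn1, 0.17 for Lrfn2, 0.13 for Lrfn3, 0.011 for Lrfn4 and 0.10 for Lrfn5.

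No netrin-G ligand gene passed with edgeR over all 10 libraries either. Lrrc4b, which binds LAR receptor phosphatases, stood at 242, 206, 237, 231 and 236 CPM in scramble and 248, 247, 255, 284 and 297 CPM in knockdown libraries. It was the member with every knockdown library above every scramble library, with a log2 fold change of 0.21 ± 0.069 (SE, with an edgeR adjusted p of 0.0616). It passed with upper quartile normalization (0.0461), the DESeq2 Wald test (0.0262), limma-voom (0.0456), the cortical score as covariate (0.0166) and without knockdown library 1 (0.0278; adjusted p values in each case). After the length and GC correction its log2 fold change was 0.030. Lrrc4 and Lrrc4c, receptors of netrin-G proteins, had log2 fold changes of 0.012 ± 0.059 and -0.028 ± 0.14.

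**Figure D4:**
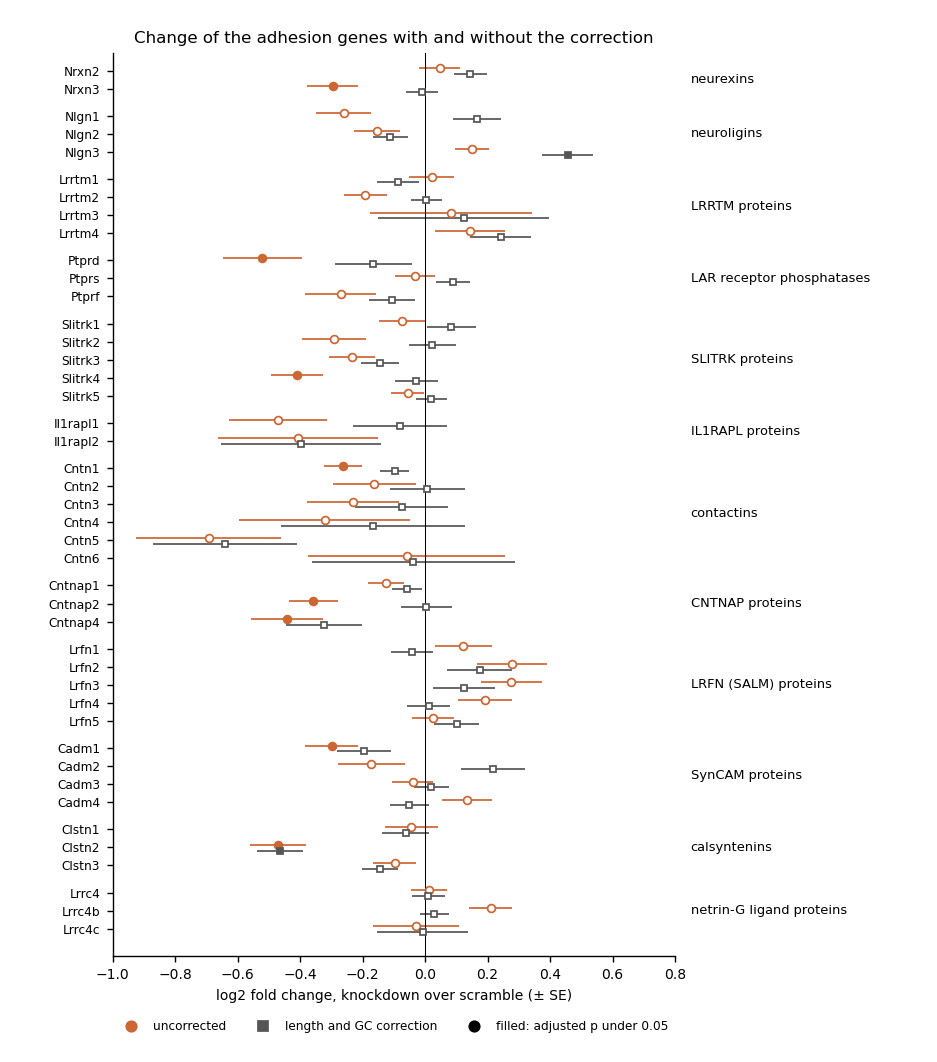
Log2 fold change (± SE) of each member, knockdown over scramble, without (circles) and with (squares) the length and GC correction, by family; filled symbols have an adjusted p under 0.05. Of 8 filled circles, only that of Clstn2 has a filled square, and Nlgn3 has a filled square alone.

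In the contactin family, 6 of 6 log2 fold changes were negative, though Cntn2 turned positive with the length and GC correction and Cntn6 with 1 surrogate variable or the cortical score, and Cntn1 fell. Cntn1, which pairs with Cntnap1 at paranodal junctions, lies on chromosome 15, 92051165 to 92341967, plus strand. It stood at 469, 503, 461, 466 and 478 CPM in scramble and 438, 402, 405, 372 and 364 CPM in knockdown libraries, with no overlap. Cntn1 had a log2 fold change of -0.26 ± 0.062 (SE, with an edgeR adjusted p of 0.0172), and -0.097 ± 0.046 (SE, with an edgeR adjusted p of 0.299) after the length and GC correction. Cntn5 also had no overlap, at 3.5, 3.71, 3.51, 4.42 and 3.44 CPM against 2.57, 2.39, 1.13, 3.09 and 2.29 CPM. Its log2 fold change was the lowest of the members, -0.69 ± 0.23 (SE, with an edgeR adjusted p of 0.0643), and it did not pass with edgeR, but passed with DESeq2 (0.0344) and limma-voom (0.0282, both adjusted p) and, with edgeR, without knockdown library 1 (adjusted p = 0.0495). After the length and GC correction it was -0.64.

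Cntn3, Cntn6 and Cntn4 lie in 1 stretch of chromosome 6, between 102162655 and 106699310. Their log2 fold changes were -0.23 ± 0.15, -0.058 ± 0.32 and -0.32 ± 0.27. Without the library labelled knockdown 5 they were -0.34, -0.36 and -0.60. Leaving out each of the 10 libraries gave -0.34 to -0.14 for Cntn3, highest without knockdown library 2. For Cntn4 it gave -0.60 to -0.20, highest without knockdown library 1, with -0.20 without knockdown library 3. None of these values passed. Cntn4 stood at 9.95, 11.4, 9.85, 19.4 and 26.3 CPM and Cntn6 at 3.72, 6.66, 3.14, 8.39 and 11.9 CPM in knockdown libraries 1 to 5. Both were low in libraries 1 and 3 and highest in the library labelled knockdown 5. The cortical layer neuron marker score, computed like the interferon score, was -0.29, -0.31, -0.33, 0.13 and 0.51 in these libraries. With that score as a covariate the log2 fold change was -0.25 for Cntn4 and 0.013 for Cntn6, neither past the threshold.

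Cntn2, which binds Cntnap2 and is made by neurons and oligodendrocytes, stood at 157, 169, 189, 173 and 166 CPM in scramble and 177, 145, 140.3, 194 and 107 CPM in knockdown libraries, with a log2 fold change of -0.16 ± 0.13. Its highest value within each group fell in scramble library 3 and knockdown library 4. The oligodendrocyte marker score was also highest there, at 0.35 and 0.69. In the library labelled knockdown 5 both were lowest, with a score of -0.43. With that score as a covariate the log2 fold change of Cntn2 was -0.24, not past the threshold.

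Of the CNTNAP proteins, neurexin-like partners of contactins, Cntnap2 and Cntnap4 fell. Cntnap2, which clusters potassium channels beside the nodes, lies on chromosome 6, 45059357 to 47304213, plus strand. It stood at 129, 145, 130.0, 133 and 143 CPM in scramble and 109.9, 89, 115, 99.4 and 118 CPM in knockdown libraries, without overlap. Cntnap2 had a log2 fold change of -0.36 ± 0.078 (SE, with an edgeR adjusted p of 0.0121), and 0.0035 after the length and GC correction. Cntnap4, known from interneurons, lies on chromosome 8, 112570043 to 112882717, plus strand. It stood at 17.8, 23.7, 19, 18 and 18.3 CPM in scramble and 12.9, 12.9, 13.5, 14 and 17.9 CPM in knockdown libraries. The library labelled knockdown 5 overlapped the scramble range by a narrow margin. For Cntnap4 the log2 fold change was -0.44 ± 0.12 (SE, with an edgeR adjusted p of 0.0277), and -0.32 ± 0.12 (SE, with an edgeR adjusted p of 0.189) after the correction. The 6 interneuron markers summed to 639.9 to 705 CPM in scramble and 569 to 751 CPM in knockdown libraries, with 1 of the 6 lower. Cntnap1, a paranodal protein, had a log2 fold change of -0.12 ± 0.057.

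Cadm1 fell among the SynCAM proteins, immunoglobulin proteins that bind each other across the cleft. It lies on chromosome 9, 47530173 to 47857637, plus strand, and stood at 168, 190.0, 181, 149 and 162 CPM in scramble and 154, 119, 129, 136 and 154 CPM in knockdown libraries. Knockdown libraries 1 and 5 overlapped the scramble range. Cadm1 had a log2 fold change of -0.30 ± 0.084 (SE, with an edgeR adjusted p of 0.0363), and -0.20 ± 0.086 (SE, with an edgeR adjusted p of 0.256) after the length and GC correction. Cadm2 had a log2 fold change of -0.17 ± 0.11, Cadm3 -0.039 ± 0.065 and Cadm4 0.13 ± 0.080. Cadm4, which also joins myelinating glia to axons, was highest in knockdown library 4, at 256 CPM, the library with the highest oligodendrocyte score. Its next highest value, 228 CPM, was in the library labelled knockdown 5, where that score was lowest. With that score as a covariate the log2 fold change of Cadm4 was 0.11 (edgeR adjusted p = 0.334). With the length and GC correction Cadm2 and Cadm4 turned to 0.22 and -0.050.

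Summed over a family, contactins stood at 699 ± 20.3 CPM in scramble and 593 ± 42.4 CPM in knockdown libraries (SD, n = 5). CNTNAP genes stood at 507 ± 18 and 443 ± 17.4 CPM, LAR receptor phosphatases at 988 ± 27.1 and 895 ± 65.4 CPM, and calsyntenins at 1713 ± 74.7 and 1597 ± 166 CPM. The LRFN sum was 232 ± 9.6 and 256 ± 26.6 CPM. All 43 members together made up 7345 ± 96.5 CPM in scramble and 6846 ± 314 CPM in knockdown libraries. These sums are led by the abundant members and by long transcripts.

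Members did not move alike in every library. The library labelled knockdown 5 was the highest of the 5 knockdown libraries for 20 of 43 members and the lowest for 9. Its median log2 ratio to the scramble mean was 0.0053. In knockdown libraries 1 to 4 that median was -0.068, -0.16, -0.16 and -0.12, while over all genes it lay between -0.0062 and 0.0070 in every knockdown library. Knockdown libraries 2 and 3 had 24 and 27 members below the whole scramble range, and knockdown library 1 had 14. The library labelled knockdown 5 had 17 members below that range and 14 above it. The share of all genes outside the scramble range was not computed per library, so these counts do not set the members apart from other genes.

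**Figure D5:**
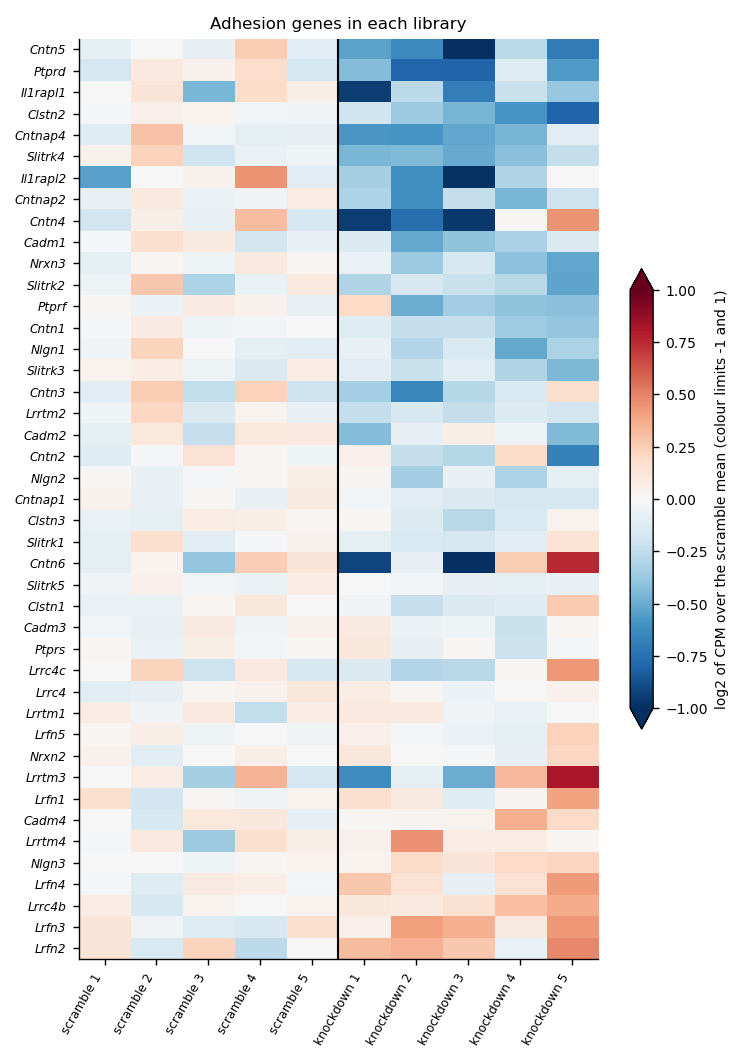
Log2 ratio of each member's CPM to its mean over the scramble libraries, for the 10 libraries, with members ordered by log2 fold change and colours saturating at -1 and 1. Knockdown 5 holds both strong reds, such as Lrrtm3 and Cntn6, and strong blues, such as Clstn2 and Cntn2.

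The calls of the 8 lower members differed in how far they depended on single libraries. Clstn2, Slitrk4 and Cntnap2 passed in all 10 fits that left out 1 library. Cntn1 missed the threshold without scramble library 2 (edgeR adjusted p = 0.054) or 5 (edgeR adjusted p = 0.0539). Ptprd missed it without scramble library 2 (edgeR adjusted p = 0.0709), scramble library 4 (edgeR adjusted p = 0.0635) or knockdown library 2 (edgeR adjusted p = 0.0576). Cntnap4 missed it without any of scramble libraries 2, 4 and 5 and knockdown libraries 2, 3 and 4, with adjusted p values of 0.0826, 0.051, 0.0562, 0.0738, 0.0533 and 0.0571. Nrxn3 missed it without scramble libraries 1, 2, 4 or 5 or knockdown libraries 2 or 4, with adjusted p values of 0.051, 0.0826, 0.087, 0.087, 0.0898 and 0.0754. For Cadm1 the call was lost without scramble libraries 1, 2, 3 or 5 or knockdown libraries 2, 3 or 4, at 0.0646, 0.103, 0.067, 0.0688, 0.0941, 0.0728 and 0.0719. Without the library labelled knockdown 5 all 8 still passed.

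The ligands, membrane partners and scaffolds of these proteins were read from a list of 69 further genes, all of them tested. Of these, 19 fell and 0 rose, where 7.61% of all genes were lower and 4.66% higher. Their median transcript was 5.18 kb. At an unadjusted p under 0.05 edgeR had 26 lower and 4 higher, the DESeq2 Wald test called 21 lower and 1 higher, and limma-voom 26 lower and 2 higher. Over all genes, 4327 of 14393 had an unadjusted edgeR p under 0.05 in either direction. DESeq2 called 9.23% of all genes lower and 7.83% higher, and limma-voom 12.7% and 10.9%. The median log2 fold change of the 69 genes was -0.15, and -0.038 after the length and GC correction. That correction left 4 lower and 1 higher, where 0.959% of all genes were lower and 0.695% higher.

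None of the 18 secreted and presynaptic ligands, such as cerebellins, neurexophilins and netrin-G proteins, passed with edgeR. At an unadjusted p under 0.05, 3 were higher and 2 lower. DESeq2 called 1 in each direction and limma-voom 2, against the shares of all genes given above. The median log2 fold change of the 18 ligands was -0.079, and their median transcript of 2.81 kb was the shortest of the 3 groups. Cbln3, 1 of the 3 higher ligands at an unadjusted edgeR p under 0.05, rested on knockdown library 2. It stood at 53.9 CPM there and at no more than 1.57 CPM in any other library. Cbln1 was also highest there, at 41.5 CPM, against 3.72 to 13.1 CPM in the other libraries. The cause was not tested.

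Of 23 other adhesion proteins and membrane partners, 11 fell, and the median log2 fold change was -0.31, with 3 lower after the length and GC correction. Their median transcript was 6.56 kb, and 22.7% of all genes of 6 to 8 kb were lower. Of the genes that fell, Cntnap5a, Mdga2, Adam22, Ptprg and Ptprz1 have transcripts of 8 to 12 kb, a class with 49.9% lower. Ntrk3, at 19.7 kb, lies in the class over 12 kb, with 63.2% lower. Mdga1 and Nfasc, also of 8 to 12 kb, did not pass. The 5 with the smallest p were Ncam2, Nrcam, Ntrk3, Chl1 and Cntnap5a. Ncam2, a neural cell adhesion molecule, fell from 67.7 ± 8.32 to 42.3 ± 5.5 CPM, with a log2 fold change of -0.68 ± 0.099 (SE, with an edgeR adjusted p of 0.00149). Nrcam, an L1-family protein that binds contactins, fell from 438 ± 18.3 to 313 ± 38.9 CPM, with a log2 fold change of -0.49 ± 0.078 (SE, with an edgeR adjusted p of 0.00235). In both genes the groups did not overlap. Both passed after the length and GC correction, at -0.46 and -0.28. Chl1, also of the L1 family, had a log2 fold change of -0.43 ± 0.078, Cntnap5a -0.50 ± 0.097 and Ntrk3, the neurotrophin receptor that also binds Ptprs, -0.33 ± 0.058. With the correction these were -0.15, -0.11 and 0.20, and none of the 3 passed.

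Among 28 cytoplasmic scaffolds, 8 fell, with a median transcript of 6.0 kb. Of all genes 7.61% were lower, with 6.40% of those of 4 to 6 kb and 22.7% of those of 6 to 8 kb. After the length and GC correction 1 was lower and 1 higher. The 5 with the smallest p were Lin7a, Magi1, Dlg2, Kidins220 and Ppfia1. Lin7a, which joins the scaffold Cask in a complex below neurexins, fell from 16.8 ± 1.68 to 10.2 ± 1.58 CPM, with a log2 fold change of -0.72 ± 0.12 (SE, with an edgeR adjusted p of 0.00317). All its knockdown libraries lay below all scramble libraries. Its transcript is short, 2.36 kb, and the value after the length and GC correction was -0.77 ± 0.13 (SE, with an edgeR adjusted p of 0.0138). Dlg2, a scaffold of the postsynaptic density, had a log2 fold change of -0.31 ± 0.067, Magi1 -0.39 ± 0.072, Kidins220 -0.35 ± 0.080 and Ppfia1, a liprin that binds LAR receptor phosphatases, -0.26 ± 0.066. With the correction they stood at -0.029, -0.13, -0.092 and -0.18, none past the threshold. Leaving out single libraries took the call from Kidins220 without scramble libraries 2 (0.0508) or 5 (0.0528). It took it from Ppfia1 without scramble libraries 1 (0.0507), 4 (0.0634) or 5 (0.0739) or knockdown library 4 (0.0551).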

How the data were processed

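Polyadenylated RNA was sequenced as read pairs, per the labels' protocols. The authors deposited 1 raw count per gene and library. Per the submitters' processing notes, HISAT2 and featureCounts were used with mm10, with versions, annotation and strand setting not given in the sources used here. Reads of overlapping genes, and of antisense genes, therefore cannot be told apart. Of 18453 identifiers, 18445 matched GENCODE M21 (GRCm38, the assembly of mm10), which gave symbols, coordinates and longest transcripts. Libraries of a group differed by more than sampling noise (chi-square per degree of freedom 3.74 to 37.4).

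The main test was edgeR 4.0.16 in R 4.3.3 (filterByExpr, TMM, the quasi-likelihood F test with robust dispersions for the group term, Benjamini-Hochberg adjustment over all 14393 genes, threshold 0.05); the SE is the log2 fold change divided by the square root of F. Marker scores use log2 CPM with a prior count of 2. The correction for length and GC content subtracts, per library, a natural spline (5 degrees of freedom) in log2 transcript length and another in GC content. Other alternatives used DESeq2 1.42.0, limma 3.58.1 and sva 3.50.0, other normalizations, filters and covariates, and fewer libraries. On simulated counts of 14288 genes, knockdown against scramble, the test recovered 73% of 1.5-fold changes and 92% of 2-fold changes, and 15 unchanged genes were called. These counts were drawn gene by gene, without the shared differences in tissue or length trend seen between the real libraries. No change smaller than 1.5-fold was put in, so the rates do not cover the smaller changes that most members had.

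Members, gene lists and alternatives were chosen with earlier results of these data known. The text gives values by library for called members and, in families without one, for the most abundant member per kb, and the 5 partner genes of each list with the smallest p. Nlgn3, Cntn2, Cntn4, Cntn5, Cntn6, Lrrtm3 and Ptprf were given by library after their values were seen.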

Additional observations from a re-analysis of the deposited data

Results flagged for a closer look

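In 86 groups of 5 libraries (43 members, each in scramble and in knockdown), 7 had 1 library whose gap to its nearest neighbour exceeded 0.71 of the range; chance flags about 1 group in 20. Scramble library 2 was high for Nlgn1 at 86.7 CPM and for Cntnap4 at 23.7 CPM. Scramble library 4 was high for Cntn5 at 4.42 CPM. Knockdown library 1 was high for Ptprf at 103 CPM, and knockdown library 2 for Lrrtm4 at 28.7 CPM. The library labelled knockdown 5 was high for Slitrk1 at 92.9 CPM and for Cntnap4 at 17.9 CPM.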

How the results depend on the processing

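All genes called numbered 1766 (38.0% of them higher). They were 3393 with limma-voom, 2787 with the cortical score as covariate, 1029 without scramble library 4 and knockdown library 5 together, 710 with 1 surrogate variable, 238 with the length and GC correction and 205 with that correction and the replicate block (53.2% higher). Without knockdown libraries 2, 3 and 4 the number called by edgeR was 0, with 2590 at an unadjusted p under 0.05. Leaving out 1 library gave 631 (scramble 2) to 3305 (knockdown 1), with 674, 737, 758, 990, 1061 and 1137 without scramble 5, knockdown 2, scramble 4, scramble 1, knockdown 4 and knockdown 3.

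Lower members numbered 8: 14 with limma-voom, 4 with 1 surrogate variable, 1 with the length and GC correction, with or without the replicate block, and 0 without knockdown libraries 2, 3 and 4. Of all 14393 genes, 1822 were lower with limma-voom and 525 with 1 surrogate variable. With the length and GC correction 138 were lower, and 96 with the replicate block added. Leaving out 1 library gave 3 (scramble 2) to 12 (knockdown 1). Without scramble 1, 3, 4 and 5 it gave 6, 9, 5 and 4, and without knockdown 2, 3, 4 and 5 it gave 4, 6, 5 and 8. In the same order, lower calls over all genes were 717, 1001, 594 and 536, and 555, 837, 747 and 1046. These fits tested 14479 to 14530 genes. Higher members numbered 0, and 1 with upper quartile normalization (Lrrc4b), with the cortical score (Lrrc4b), with the oligodendrocyte score (Lrfn3) or with the length and GC correction, alone or with the replicate block (Nlgn3). They were 2 with the DESeq2 Wald test and with limma-voom (Nlgn3 and Lrrc4b), and 0 to 3 leaving out 1 library, the 3 without knockdown 1 (Nlgn3, Lrfn3 and Lrrc4b). Of all 14393 genes, 849 were higher with upper quartile normalization, 1188 with the cortical score and 523 with the oligodendrocyte score. With the length and GC correction 100 were higher, and 109 with the block added. DESeq2 called 1163 of 14859 higher, limma-voom 1571 of 14393, and edgeR without knockdown 1 called 1529 of 14515.

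Same-numbered libraries of the 2 groups deviated from their group means with correlations of 0.24, 0.18, 0.40, -0.11 and 0.079, so the numbers were not taken as pairs; not every library correlated best with its own number. The replicate block gave 1313 genes, 841 of them lower, and 7 lower members. Against the main fit, these 7 lacked Nrxn3 (0.0608) and Cadm1 (0.0683) and held Il1rapl1 (0.0423, all edgeR adjusted p values).

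Log2 fold changes of members and of the 10 partner genes described singly changed sign as follows, Cntnap2 and Ntrk3 being the ones that had passed. With limma-voom they were Nrxn2 (-0.0086), Lrrtm3 (-0.045), Lrfn5 (-0.015) and Lrrc4 (-0.011). With the length and GC correction they were Nlgn1 (0.17), Lrrtm1 (-0.086), Lrrtm2 (0.0045), Ptprs (0.090), Slitrk1 (0.085), Slitrk2 (0.023), Slitrk5 (0.021), Cntn2 (0.0077), Cntnap2 (0.0035), Lrfn1 (-0.042), Cadm2 (0.22), Cadm3 (0.021), Cadm4 (-0.050) and Ntrk3 (0.20). With that correction and the replicate block they were Nlgn1 (0.16), Lrrtm1 (-0.082), Lrrtm2 (0.0042), Ptprs (0.089), Slitrk1 (0.078), Slitrk2 (0.024), Slitrk5 (0.021), Lrfn1 (-0.046), Cadm2 (0.20), Cadm3 (0.018), Cadm4 (-0.054) and Ntrk3 (0.20). With 1 surrogate variable they were Cntn6 (0.13), Clstn1 (0.040) and Lrrc4c (0.078). With the cortical score they were Lrrtm1 (-0.00062), Cntn6 (0.013) and Lrrc4c (0.024). Without scramble 4 and knockdown 5 they were Lrrtm1 (-0.032), Lrrtm3 (-0.076) and Lrfn5 (-0.033). Without knockdown 2, 3 and 4 they were Ptprs (0.046), Slitrk1 (0.021), Cntn6 (0.14), Cadm3 (0.050), Clstn1 (0.11), Clstn3 (0.023) and Lrrc4c (0.16). Leaving out 1 library turned the sign of Lrrtm1 (-0.034 to 0.050), Lrrtm3 (-0.17 to 0.22), Ptprs (-0.070 to 0.0094), Cntn6 (-0.36 to 0.12), Lrfn5 (-0.026 to 0.054), Cadm3 (-0.071 to 0.0042), Clstn1 (-0.13 to 0.00048), Lrrc4 (-0.017 to 0.045) and Lrrc4c (-0.17 to 0.033). The cause was not tested. The precision is set by the spread between libraries; only Il1rapl2, Cntn5 and Cntn6 had fewer than 10 CPM in every scramble library.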
